A study of Mus musculus with 4 samples.

Results

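The genes described here mark mast cells and basophils, the effector cells of IgE-driven allergy. They are 9 of the 32285 genes in a table of molecule counts (UMIs, unique molecular identifiers) from 6054 single immune cells of the mouse esophagus, and were chosen by name: the proteases Cpa3, Mcpt4, Cma1 and Tpsb2, the basophil protease Mcpt8, the IgE receptor subunits Fcer1a and Ms4a2, the receptor tyrosine kinase Kit and the surface receptor Cd200r3. At least 1 UMI of them was found in 447 cells.

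The series set 5 Il20rb knock-out mice against 5 wild-type mice, all of them carried through a model of eosinophilic esophagitis. Il20rb encodes a receptor chain used by IL-19, IL-20 and IL-24. In both genotypes the ear was treated daily for 14 days with 1 nmol of MC903 (calcipotriol) and ovalbumin at 5 mg/ml. Ovalbumin at 1.5 g per litre was then given in the drinking water for 4 days, with 50 mg by gavage on days 15 and 17, and the esophagus was taken on day 18. The labels name no tissue to which the deletion was limited. No unsensitised mice are among the samples, and the labels used here give no ages. Cells of each animal carried their own hashtag antibody, and viable CD45+ cells of all 10 animals were sorted as a single pool and loaded on 2 wells, so the animal was the replicate. The table held 2633 knock-out cells and 3421 wild-type cells, with 1805883 to 5666994 UMIs per knock-out animal and 2884534 to 5113431 per wild-type animal. The 2 wells shared 2 cell barcodes. Il20rb itself had 2, 1, 1, 1 and 1 UMIs in knock-out animals 1 to 5, against 1, 0, 5, 2 and 2 UMIs in wild-type animals 1 to 5, which is too few to check the genotype labels.

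Mast cells mature in tissues and fill their granules with proteases bound to the proteoglycan serglycin, together with histamine. Basophils circulate and carry far less protease. Both display the high-affinity IgE receptor, whose cross-linking by allergen releases granules, lipid mediators and cytokines. Kit, the receptor for stem cell factor, keeps mast cells alive; innate lymphoid cells and progenitors carry it too.

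The genes of 3 of the proteases lie together: Cma1 (chymase 1, chr14:55941451-55944675), Mcpt4 (mast cell protease 4, a chymase of connective tissue mast cells, chr14:56059744-56062310) and Mcpt8 (chr14:56082163-56085499) are in the chymase locus, which also holds Ctsg and Gzmb. Cpa3, carboxypeptidase A3, lies at chr3:20215616-20242209, and Tpsb2, a tryptase, at chr17:25366308-25368096. Fcer1a, the IgE-binding chain, lies at chr1:173221269-173227232, and Ms4a2, the beta chain of the same receptor, at chr19:11615517-11623790. Kit lies at chr5:75574987-75656722 and Cd200r3 at chr16:44943596-45058365. All coordinates are those of GRCm38.p6. The promoters of 3 proteases that were found in the same cells are shown with that of Mcpt8, found in other cells, each from 250 bases before to 50 after the start on the minus strand (RefSeq, GRCm38.p6: Cpa3 chr3:20242132-20242431, Mcpt4 chr14:56062261-56062560, Cma1 chr14:55944626-55944925, Mcpt8 chr14:56085148-56085447). Capitals mark GATA boxes, the letters recognised by GATA factors.
Cpa3: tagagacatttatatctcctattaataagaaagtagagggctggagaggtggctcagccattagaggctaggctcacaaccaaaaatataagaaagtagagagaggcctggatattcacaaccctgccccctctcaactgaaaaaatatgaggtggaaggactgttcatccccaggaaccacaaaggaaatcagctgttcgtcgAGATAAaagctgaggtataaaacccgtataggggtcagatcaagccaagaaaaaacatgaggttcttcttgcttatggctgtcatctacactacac
Mcpt4: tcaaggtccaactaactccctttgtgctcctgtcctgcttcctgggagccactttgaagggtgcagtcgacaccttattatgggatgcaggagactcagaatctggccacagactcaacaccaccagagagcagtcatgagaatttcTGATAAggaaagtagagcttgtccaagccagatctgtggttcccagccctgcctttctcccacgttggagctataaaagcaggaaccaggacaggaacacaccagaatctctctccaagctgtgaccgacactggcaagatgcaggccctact
Cma1: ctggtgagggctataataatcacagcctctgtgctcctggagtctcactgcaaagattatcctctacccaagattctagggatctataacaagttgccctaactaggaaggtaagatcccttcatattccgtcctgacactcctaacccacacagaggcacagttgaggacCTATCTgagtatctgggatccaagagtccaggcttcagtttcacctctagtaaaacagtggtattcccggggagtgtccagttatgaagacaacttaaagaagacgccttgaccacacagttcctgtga
Mcpt8: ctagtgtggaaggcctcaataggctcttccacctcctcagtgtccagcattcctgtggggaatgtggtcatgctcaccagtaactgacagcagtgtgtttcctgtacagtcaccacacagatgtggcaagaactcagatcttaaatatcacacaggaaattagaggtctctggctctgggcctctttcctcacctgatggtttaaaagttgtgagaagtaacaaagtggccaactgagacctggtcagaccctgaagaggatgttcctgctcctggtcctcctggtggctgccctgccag
The motifs searched were AGATAA and AGATAG as well as TGATAA and TGATAG on both strands, and overlapping matches were each kept. Of the 8 members with a promoter in the RefSeq table, 6 (75.0%) held at least 1 box, against 29.8% of all 32851 promoters. Cpa3, Mcpt4, Cma1 and Fcer1a held 1 box each, Ms4a2 and Cd200r3 held 3 each, and none of these letters was in the Mcpt8 or Kit window.

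A cluster of 20 cells held nearly all of the protease message. Cells were clustered without the 9 genes, and this cluster was called mast-like because all 12 mast cell markers of the list used for naming were raised in it; 7 of those markers are members, and the others are Tpsab1, Hdc, Gata2, Mrgprb1 and Mrgprb2. Mast-like cells held 97.2% of the 1231 Cpa3 UMIs, 99.7% of the 2180 Mcpt4 UMIs, 98.3% of the 1774 Cma1 UMIs and 99.5% of the 625 Tpsb2 UMIs. They also held 94.4% of the 126 Fcer1a UMIs and 91.4% of the 70 Ms4a2 UMIs. Kit and Cd200r3 were spread more widely, with 11.7% of 716 and 19.8% of 116 UMIs in mast-like cells. Of the 40 Mcpt8 UMIs, 1 was in a mast-like cell.

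**Figure D1:**
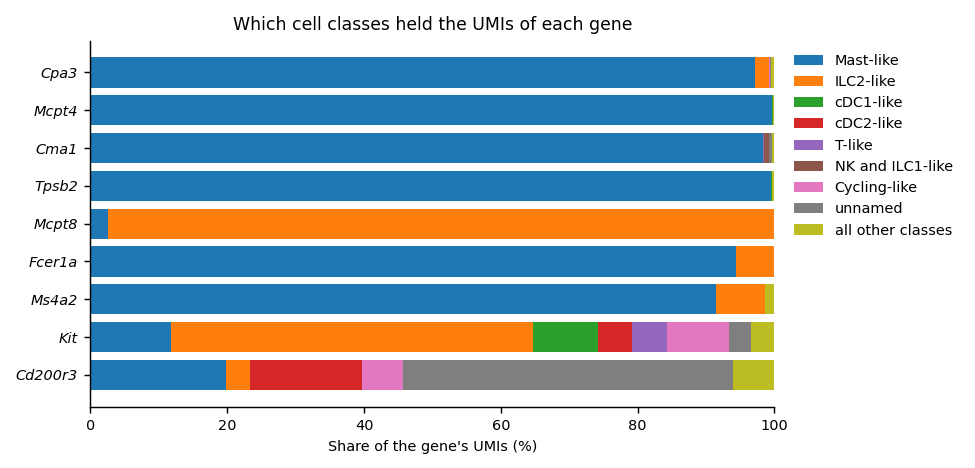
Share of each gene's UMIs (%) held by each cell class, all animals together. The mast-like class of 20 cells held 91.4% to 99.7% of the UMIs of 6 genes, while Kit, Cd200r3 and Mcpt8 lay mostly in other classes; the 39 Mcpt8 UMIs drawn as ILC2-like were in 3 cells described in the text.

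Every mast-like cell had UMIs of all 4 proteases, of Fcer1a and of Kit. Ms4a2 was seen in 19 of the 20 and Cd200r3 in 13. The 4 proteases made up 7.79% to 18.9% of a cell's UMIs in the 5 knock-out cells (median 10.8%) and 4.85% to 17.8% in the 15 wild-type cells (median 12.5%). Mcpt4 gave 38 to 246 UMIs per knock-out cell (median 59) and 34 to 247 per wild-type cell (median 102). Cpa3 gave 24 to 67 UMIs per knock-out cell (median 34) and 15 to 194 per wild-type cell (median 36). The ranges of the genotypes overlapped for both. Pooled over mast-like cells, Mcpt4 was 4.67% of knock-out and 4.69% of wild-type mast-like UMIs. A single knock-out cell held 246 of the 479 knock-out UMIs, and without it, a setting chosen after seeing the data, Mcpt4 was 3.06% of knock-out mast-like UMIs. Cma1 was 4.07% of knock-out and 3.67% of wild-type mast-like UMIs, and Cpa3 was 2.18% of knock-out and 2.69% of wild-type mast-like UMIs. With 0 to 4 mast-like cells per animal, levels within them were not tested.

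These cells were shallow. They held a median of 2044 UMIs (1015 to 5185), and 7 of 20 (35.0%) lay between 1000 and 1500 UMIs, against 5.45% of all cells. The deposited table begins at 1000 UMIs per cell, and mast cells below that were not analysed here. The effect of that limit on their number was not tested. After each cell was thinned to 1000 UMIs, all 20 still had each of the 4 proteases.

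**Figure D2:**
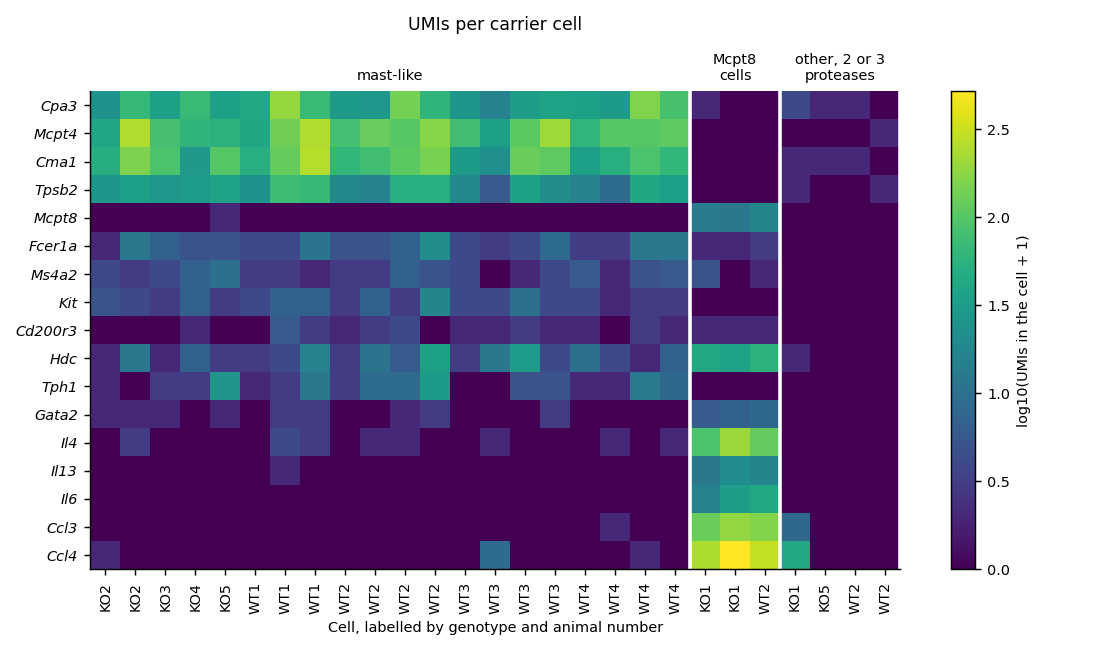
UMIs per cell, as log10(UMIs + 1), of the 9 genes and of 8 mediator, regulator and cytokine genes; each column is a cell, labelled by genotype and animal, knock-out cells first within each group. The 20 mast-like cells had all 4 proteases and at most 3 Il4 UMIs each. The 3 Mcpt8 cells had 87 to 200 Il4 UMIs and at most 1 protease UMI. The rule for Mcpt8 cells left out cells with 2 or more of the proteases.

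Mast-like cells numbered 0, 2, 1, 1 and 1 in knock-out animals 1 to 5, against 3, 4, 4, 4 and 0 in wild-type animals 1 to 5. An animal without any occurred in each genotype, so the groups overlapped. The 0 of 877 cells in knock-out animal 1 allows a share of up to 0.342%, and the 0 of 578 cells in wild-type animal 5 a share of up to 0.519%. Knock-out animals had 0.254 ± 0.198% mast-like cells and wild-type animals 0.451 ± 0.305% (SD, n = 5 each; two-sided exact permutation p = 0.278, adjusted p = 0.278 over the 2 class shares tested). This test was not planned beforehand. Pooled, the share was 0.190% of knock-out cells (exact binomial 95% interval 0.0617 to 0.443) and 0.438% of wild-type cells (0.246 to 0.722); these intervals cover counting error only. A rule that did not use clusters, UMIs of at least 2 of the 4 proteases, found 24 cells, 7 knock-out and 17 wild-type. The 4 cells it added had 2 to 5 protease UMIs each and lay in the neutrophil-like, ILC2-like and cDC1-like classes and in an unnamed cluster.

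Sums over all cells of an animal followed those few cells; in such sums fewer carrier cells and less RNA per cell cannot be told apart. Levels are raw CPM, an animal's UMIs of the gene scaled to the same total of UMIs, over all its CD45+ cells. Each test of a level is the two-sided exact permutation test over all splits of the animals 5 against 5, whose smallest p is 0.00794. Cpa3 was at 0.882, 36.1, 18.8, 29.9 and 10.1 CPM in knock-out animals 1 to 5, against 68.1, 71.7, 22.5, 95.3 and 1.04 CPM in wild-type animals 1 to 5. All wild-type animals but 2 lay above every knock-out animal, and wild-type animal 5 lay beside knock-out animal 1. The means were 19.1 ± 14.3 CPM in knock-out and 51.7 ± 38.7 CPM in wild-type animals (exact p = 0.119, n = 5 each). Mcpt4 was at 0.176, 113.9, 45.4, 25.2 and 15.1 CPM in knock-out animals 1 to 5, against 92.1, 132.4, 83.9, 115.3 and 0 CPM in wild-type animals 1 to 5. Knock-out animal 2, with 2 mast-like cells, lay within the wild-type values. The means were 40.0 ± 44.5 CPM in knock-out and 84.8 ± 51.1 CPM in wild-type animals (exact p = 0.175).

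Cma1 averaged 34.9 ± 32.0 CPM in knock-out and 66.2 ± 41.8 CPM in wild-type animals (exact p = 0.23, n = 5 each), and Tpsb2 12.4 ± 8.5 CPM in knock-out and 23.6 ± 15.6 CPM in wild-type animals (exact p = 0.19). Both genes were again lowest in knock-out animal 1 and wild-type animal 5. Without wild-type animal 5, the difference passed 0.05 unadjusted for Cpa3 (exact p = 0.0317), Mcpt4 (exact p = 0.0397) and Tpsb2 (exact p = 0.0397), and missed it for Cma1 (exact p = 0.0556). That animal had no mast-like cell, and knock-out animal 1, also without any, stayed in these tests. With each animal left out in turn, the exact p ran from 0.0317 to 0.254 for Cpa3, 0.0397 to 0.325 for Mcpt4, 0.0556 to 0.405 for Cma1 and 0.0397 to 0.365 for Tpsb2.

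Of the IgE receptor subunits, Fcer1a was at 0.529, 4.81, 3.32, 1.68 and 1.12 CPM in knock-out animals 1 to 5, against 3.50, 10.3, 3.13, 8.33 and 0.347 CPM in wild-type animals 1 to 5. Wild-type animals 2 and 4 stood highest, and the other values overlapped. Fcer1a averaged 2.29 ± 1.75 CPM in knock-out and 5.12 ± 4.08 CPM in wild-type animals (exact p = 0.23, n = 5 each). Ms4a2 averaged 1.94 ± 0.818 CPM in knock-out and 2.25 ± 2.03 CPM in wild-type animals (exact p = 0.746), and its difference turned to 0.166 CPM without wild-type animal 2 and 0.277 CPM without wild-type animal 4.

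**Figure D3:**
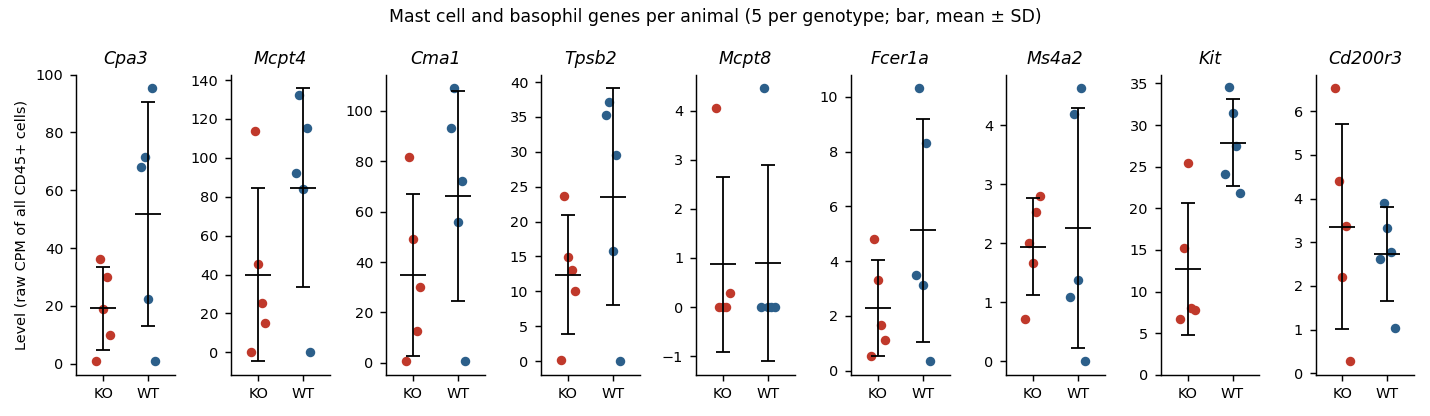
Level of each of the 9 genes in raw CPM of all CD45+ cells of an animal, knock-out (KO) left and wild-type (WT) right; points are animals, bars the mean ± SD of 5. The genotypes overlapped for every gene; Kit came nearest to separating, with 4 knock-out animals below all 5 wild-type animals.

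In the edgeR quasi-likelihood fit across all genes, 7 members had enough counts to be tested, and Mcpt8 and Ms4a2 did not. None of the 7 passed an adjusted p of 0.05, where 4 of 10175 genes (0.0393%) did, all 4 lower in knock-out animals. At an unadjusted p under 0.05 the fit held 697 genes, Kit among the members. DESeq2 called 74 genes (0.727%) and, of the members, Kit. The log2 fold change, knock-out over wild type, was -1.48 ± 0.95 for Cpa3, -1.25 ± 0.71 for Fcer1a and -1.12 ± 1.14 for Mcpt4 (± SE). It was -1.01 ± 0.92 for Tpsb2, -0.95 ± 1.02 for Cma1 and 0.41 ± 0.54 for Cd200r3. The median over the 7 was -1.12, against 0.01 over all genes tested (6 negative, 1 positive). The members share carrier cells and are not independent of each other.

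Kit was lower in knock-out animals in the sums, by the unadjusted test of this gene alone, and most of its message lay outside mast-like cells. It was at 6.71, 15.2, 25.5, 7.99 and 7.83 CPM in knock-out animals 1 to 5, against 24.1, 34.6, 31.5, 27.4 and 21.8 CPM in wild-type animals 1 to 5. Knock-out animal 3 lay among the wild-type animals, and the other 4 lay below all of them. Kit averaged 12.6 ± 7.93 CPM in knock-out and 27.9 ± 5.22 CPM in wild-type animals (exact p = 0.0238, the lowest of the 9 members tested this way, n = 5 each). The edgeR log2 fold change was -1.17 ± 0.30 (adjusted p = 0.311 over all genes), and DESeq2 gave an adjusted p of 0.0426. As a share of cells with a Kit UMI the difference was 4.14 ± 2.60% in knock-out and 7.55 ± 2.03% in wild-type animals (exact p = 0.0635). After thinning each cell to 1000 UMIs that share was 1.06% in knock-out and 3.17% in wild-type animals (exact p = 0.00794). The CPM difference was -20.6 without monocyte-like and neutrophil-like cells (exact p = 0.00794), -18.6 in well 1 alone (exact p = 0.0397) and -11.8 in well 2 alone (exact p = 0.00794).

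ILC2-like cells, the innate lymphocytes that make type 2 cytokines, held 379 of the 716 Kit UMIs, and 180 of 301 such cells (59.8%) had at least 1. The class includes 3 Mcpt8 cells with 0 Kit UMIs, described further on. Their median depth was 3283 UMIs, while in macrophage-like cells, a class not known for Kit, 2 of 740 cells (0.270%) had a UMI at a median depth of 4470 UMIs. Per animal, Kit was highest in mast-like cells at 1800 ± 903 CPM (SD, 8 animals) and next in ILC2-like cells at 348 ± 85.3 CPM (9 animals with 10 or more such cells). These levels did not overlap, as the lowest animal had 695 CPM in mast-like cells and the highest had 468 CPM in ILC2-like cells. Conventional type 1 dendritic-like cells (cDC1-like) followed at 46.0 ± 30.4 CPM (9 animals), T-like cells at 34.7 ± 56.0 CPM (9 animals) and cycling cells at 24.8 ± 24.2 CPM (5 animals). The levels of these 3 classes lay within each other's spread. cDC2-like cells had 5.58 ± 5.15 CPM and macrophage-like cells 0.436 ± 0.920 CPM (10 animals each), and monocyte-like cells were at 0 in 1476 cells. This order holds for classes with 10 or more cells in an animal, apart from mast-like cells. In the small Langerhans-like class 7 of 20 cells had a Kit UMI, and its pooled level of 75.3 CPM was above the 44.4 CPM of cDC1-like cells pooled. In T-like cells Kit was at 3.52 ± 7.04 CPM in 4 knock-out animals and 59.6 ± 67.1 CPM in 5 wild-type animals. It did not pass the filter on low counts there, and edgeR without that filter gave an adjusted p of 0.122. Wild-type animal 2 held 20 of the 37 Kit UMIs of T-like cells. Among cycling cells, 1 cluster of 14 cells held 54 Kit UMIs, in 12 cells (85.7%), and the other 186 cells held 11. The leading genes of that small cluster included Calca, a gene of the marker list for ILC2, and Ctla2a, beside cycling genes such as Top2a. It was not counted as ILC2-like, so the sums without ILC2-like cells given below kept it.

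**Figure D4:**
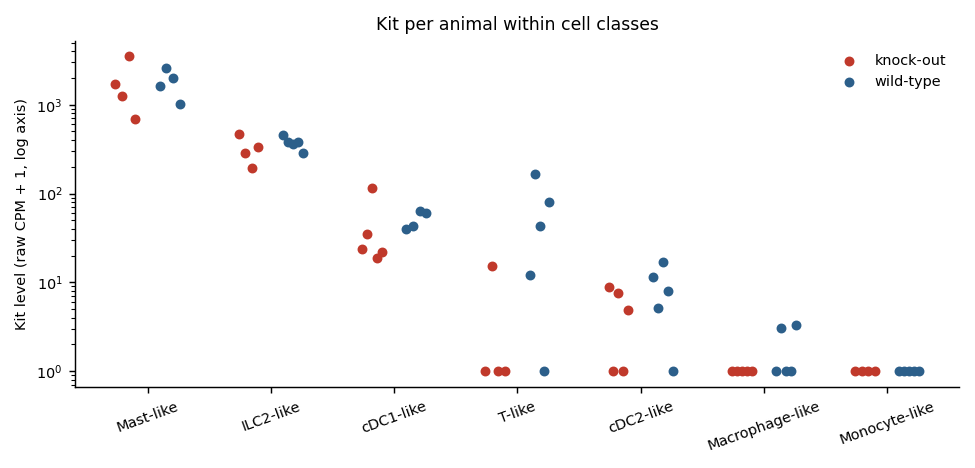
Kit level per animal within cell classes (raw CPM + 1, log axis), knock-out left of wild-type; animals with fewer than 10 cells of a class are left out, except for mast-like cells (1 to 4 cells per animal). Mast-like cells were highest and ILC2-like cells next, with the genotypes overlapping in both.

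Within ILC2-like cells the genotypes overlapped in Kit and the difference did not pass the test. It averaged 320 ± 115 CPM in 4 knock-out animals and 369 ± 57.6 CPM in 5 wild-type animals. The edgeR fit of this class gave a log2 fold change of -0.18 ± 0.23 (adjusted p = 0.854; unadjusted p = 0.429), where 5 of 1617 genes (0.309%) were called, and DESeq2 gave an adjusted p of 0.807. With an animal left out the log2 fold change ran from -0.46 (without knock-out animal 1, edgeR adjusted p = 0.572) to -0.01. It was -0.38 without a filter on low counts (edgeR adjusted p = 0.719) and -0.16 without the 3 Mcpt8 cells (edgeR adjusted p = 0.863). The other 8 members had too few counts for the main fit of this class. Knock-out animal 3, with 6 ILC2-like cells, was not in that fit. ILC2-like cells themselves were 2.78 ± 1.20% of knock-out cells and 7.02 ± 2.53% of wild-type cells (SD, n = 5 each; exact permutation p = 0.0238, adjusted p = 0.0476 over the 2 class shares tested). Tests of class shares were not planned beforehand, and shares of classes other than mast-like and ILC2-like were not tested. The adjustment therefore does not cover the choice of these classes. Without the 3 Mcpt8 cells they were 2.73 ± 1.24% of knock-out cells and 6.99 ± 2.57% of wild-type cells (exact p = 0.0238, n = 5 each). Without ILC2-like cells in the sums, Kit was 7.82 CPM in knock-out and 12.9 CPM in wild-type animals (difference -5.09 CPM, exact p = 0.302). Without mast-like cells as well, it was 6.40 CPM in knock-out and 9.50 CPM in wild-type animals (difference -3.10 CPM, exact p = 0.468). The settings without Mcpt8, ILC2-like or mast-like cells were chosen after seeing the data. Knock-out animal 3 had 37 of its 46 Kit UMIs outside both classes, of which 16 were in cycling cells and 13 in cDC1-like cells.

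The genes most like Kit over all 6054 cells, by the Pearson correlation of log counts, were Ctla2a (r = 0.549), Serpinb1a (r = 0.524) and Gata3 (r = 0.500), the last a transcription factor of type 2 lymphocytes. All cells share 2 wells and differ in depth, so these are descriptions. For the 4 proteases, Fcer1a, Ms4a2 and Cd200r3 the most similar gene was Slc18a2, the vesicular monoamine transporter, with r from 0.404 to 0.614. Cadm3, Myb, Papss2 and Fam198b followed among them.

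Cd200r3, an activating receptor of the CD200 receptor family, was in 72 cells and mostly outside mast-like cells. It was at 6.53, 4.41, 2.22, 3.37 and 0.279 CPM in knock-out animals 1 to 5, against 2.63, 3.90, 3.33, 2.78 and 1.04 CPM in wild-type animals 1 to 5. Knock-out animals held both the highest and the lowest value. The means were 3.36 ± 2.34 CPM in knock-out and 2.73 ± 1.07 CPM in wild-type animals (exact p = 0.627, n = 5 each), and without knock-out animal 1 the difference turned to -0.166 CPM. Of the 116 UMIs, 23 were in mast-like cells. Another 25 were in an unnamed cluster of 203 cells led by Ccl8, Spp1 and Ctsl, 22 of them in knock-out cells, and 19 in an unnamed cluster of 152 cells led by Fcrls and Upb1. A further 16 were in a cDC2-like cluster led by Cd209d. The single highest cell had 14 UMIs. It was a cell of knock-out animal 1 in the cluster led by Ccl8, so 14 of the 22 knock-out UMIs there came from 1 cell. Within mast-like cells, Cd200r3 had UMIs in 1 of 5 knock-out cells and 12 of 15 wild-type cells. That was 1 of 10252 UMIs in knock-out and 22 of 36157 UMIs in wild-type mast-like cells (0.00975% and 0.0608%). Ms4a2 went the other way in these cells, with 0.224% of knock-out and 0.113% of wild-type UMIs. With so few cells per animal, neither difference was tested.

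Some proteases had a low level in other lymphoid classes. Cpa3 was in 18 of 301 ILC2-like cells (5.98%, exact binomial 95% interval 3.58 to 9.29) with 25 UMIs, against 3 of 740 macrophage-like cells (0.405%, 0.0837 to 1.18) and 0 of 1476 monocyte-like cells, which had median depths of 3283, 4470 and 5749 UMIs. Without the 3 Mcpt8 cells, 17 of 298 ILC2-like cells (5.70%) had Cpa3. Mast-like cells held 1197 Cpa3, 2173 Mcpt4 and 622 Tpsb2 UMIs, so the ratio of Cpa3 to the others differed in ILC2-like cells, where Mcpt4 and Tpsb2 had 0 UMIs, which allows a UMI in up to 0.997% of those cells. Cma1 was in 7 of 35 NK and ILC1-like cells (exact binomial 95% interval 8.44 to 36.9%) with 11 UMIs, 8 in knock-out and 3 in wild-type cells, against 1 of 301 ILC2-like and 1 of 740 macrophage-like cells. The intervals cover counting error only, and the genotypes were not compared for this class. Knock-out animal 5 gave 11 of its 13 knock-out cells, and wild-type animal 1 gave 11 of its 22 wild-type cells. Those NK and ILC1-like cells had 0 UMIs of the other 3 proteases. Gzmb, a granzyme of cytotoxic lymphocytes in the same locus as Cma1, had 1164 UMIs in 79 cells and 0 in mast-like cells.

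Mcpt8 marked other cells. Its 40 UMIs were in 4 cells, and 39 of them were in 3 cells called Mcpt8 cells. The rule for these asked for an Mcpt8 UMI and a UMI of Fcer1a, Ms4a2 or Cd200r3. It left out cells with UMIs of 2 or more of the 4 proteases, so little protease was set by the rule. All 3 cells had Fcer1a, Cd200r3, Hdc and Gata2 UMIs and at most 1 protease UMI. Hdc and Gata2 were not part of the rule, but Hdc was also among the leading genes of a neutrophil-like cluster. Knock-out animal 1 had 2 of these Mcpt8 cells, with 12 and 11 Mcpt8 UMIs of 2820 and 4693 in all. Wild-type animal 2 had the other, with 16 Mcpt8 UMIs of 4310. No other animal had any, so Mcpt8 averaged 0.868 ± 1.79 CPM in knock-out and 0.892 ± 2.00 CPM in wild-type animals (exact p = 1, n = 5 each). Clustering put the 3 cells in the ILC2-like cluster. They had 0 Gata3, Cd3e and Kit UMIs and 0 to 3 of Il7r. Among other genes of the marker list for ILC2, each had 2 to 3 Il1rl1 and 11 to 20 Il13 UMIs. Areg gave 4 UMIs in 1 of them, and Rora and Il5 gave 0. 2 of the 3, both from knock-out animal 1, were in the top 5% of doublet scores, and what that adds to their profile was not tested.

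Of 27 cytokine and chemokine genes, 13 had 10 or more UMIs in the 3 Mcpt8 cells. In so few cells that limit itself picks genes with a high CPM there. Genes under the limit went both ways against the cells of neither carrier group. Ccl2 (0 against 2024 CPM) and Cxcl10 (84.58 against 794.2 CPM) were lower in Mcpt8 cells, and Csf2 (676.6 against 20.85 CPM) was higher. Of all 666 Il4 UMIs in the table, 401 (60.2%) were in these 3 cells: 87 and 200 in the knock-out cells and 114 in the wild-type cell. Il4 and Il13, which drive IgE switching and epithelial responses in allergy, were each found in all 3 cells, with 11, 20 and 16 Il13 UMIs in the same order of cells, 47 of 245 (19.2%). They held 89 of 690 Il6 UMIs (12.9%), 471 of 9154 Ccl3 UMIs (5.15%) and 1051 of 45417 Ccl4 UMIs (2.31%). Cxcl2, a neutrophil chemokine, gave 645 UMIs in 2 of the 3 cells (54550 CPM, against 2724 CPM in the cells of neither group). Il1b gave 122 UMIs (10320 CPM, against 1455 CPM) and Ccl9 gave 45. The 5 others were Csf1, Osm, Hgf, Lif and Tnf, with 40, 28, 25, 24 and 10 UMIs. Neutrophil-like cells also had much of some of these: Cxcl2 was at 43400 CPM there, Il1b at 24900 CPM, Ccl4 at 11200 CPM and Ccl3 at 3170 CPM, while Il4 was at 0.832 CPM and Il6 at 2.49 CPM. With 2 of the 3 Mcpt8 cells in the top 5% of doublet scores, the part of other cells in these values was not tested. Il5, the eosinophil growth factor, was at 0 in all 3 Mcpt8 cells. Il4 and Il13 were also the genes most like Mcpt8 over all cells (r = 0.679 and r = 0.492), followed by Hgf (r = 0.306); these values rest on 3 cells.

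In mast-like cells 5 of these genes had 10 or more UMIs. Il4 gave 12 UMIs in 8 of the 20 cells, at 258.6 CPM against 7.18 CPM in the cells of neither group. Il13 gave 1 UMI, and Il5 and Il6 gave 0, which allows a UMI in up to 15.0% of mast-like cells. Cxcl2 gave 31 UMIs in 3 cells and Ccl4 10 in 3 cells. Ccl7 gave 114 UMIs in 13 cells and Ccl2 70 UMIs in 19 cells, both chemokines for monocytes. Ccl7 was at 2456 CPM in mast-like cells and 1194 CPM in the cells of neither carrier group, and Ccl2 was at 1508 CPM in mast-like cells and 2024 CPM in those other cells. The part of free RNA in these values was not tested.

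The Mcpt8 cells carried all of the Il4 UMIs of knock-out animal 1 (287 of 287) and 114 of 338 in wild-type animal 2. Il4 was at 50.6, 1.20, 0, 0 and 0 CPM in knock-out animals 1 to 5, against 2.63, 94.2, 4.50, 0.617 and 0.347 CPM in wild-type animals 1 to 5. The animals with Mcpt8 cells were the highest of each genotype. Il4 averaged 10.4 ± 22.5 CPM in knock-out and 20.5 ± 41.3 CPM in wild-type animals (SD, n = 5 each). Without the 3 cells, a setting chosen after seeing the data, it averaged 0.240 ± 0.537 CPM in knock-out and 14.1 ± 27.1 CPM in wild-type animals. The wild-type value rested on another single cell, a T-like cell of wild-type animal 2 with 218 Il4 and 114 Il13 UMIs. Il13 averaged 2.16 ± 2.28 CPM in knock-out and 10.4 ± 15.3 CPM in wild-type animals, and without the Mcpt8 cells 1.06 ± 0.817 CPM in knock-out and 9.51 ± 13.3 CPM in wild-type animals. Il4 and Il13 did not pass the filter of the fit across all genes, which asks for counts in enough animals. Of the 666 Il4 UMIs, 287 were in knock-out animal 1 and 338 in wild-type animal 2. Il5, tested there, had a log2 fold change of -1.05 ± 0.38 (adjusted p = 0.599).

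**Figure D5:**
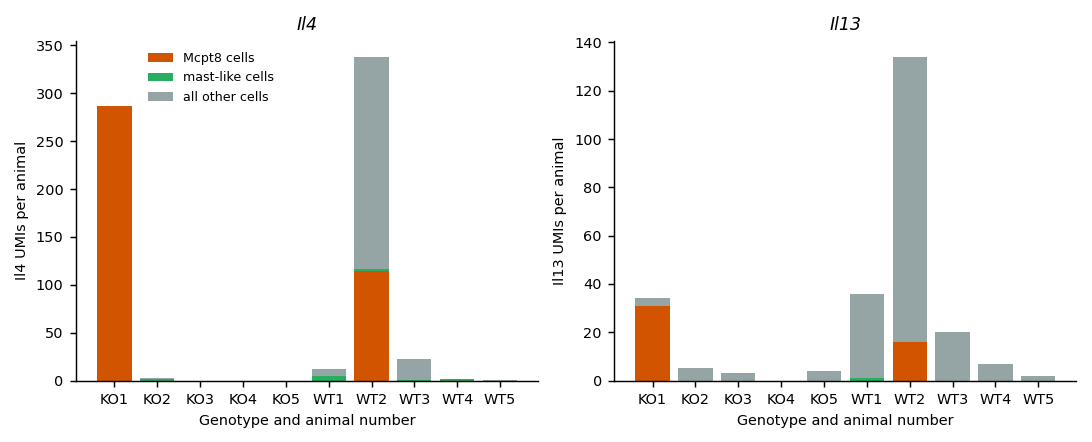
Il4 (left) and Il13 (right) UMIs per animal, knock-out animals (KO1 to KO5) left of wild-type animals (WT1 to WT5), split by the cells that held them. In KO1 the Mcpt8 cells held all 287 Il4 UMIs and 31 of 34 Il13 UMIs; in WT2 they held 114 of 338 Il4 UMIs.

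Other granule genes accompanied the members in mast-like cells. Of 9 other granule proteases, 5 had UMIs there: the tryptases Tpsab1 (39 UMIs) and Tpsg1 (19 UMIs) were found in no other cell, and Prss34 (8 UMIs), Ctsg (9) and Cma2 (2) were lower. Mcpt1 and Mcpt2, proteases of mucosal mast cells, and Mcpt9 had 0 UMIs in the table. Reads shared between near-identical tryptases or chymases may have been assigned to either copy or dropped, so the split within each family is uncertain. All 10 genes of the granule matrix and amine list had UMIs in mast-like cells. Hdc, which makes histamine, was at 3405 CPM in mast-like cells and 11250 CPM in Mcpt8 cells, against 63.5 CPM in the cells of neither group. Most of its message lay elsewhere: of 2530 Hdc UMIs in 722 cells, 158 were in mast-like and 133 in Mcpt8 cells. Hdc was also among the leading genes of a neutrophil-like cluster of 270 cells. Tph1, which starts serotonin synthesis, had 120 of its 125 UMIs in mast-like cells and 0 in Mcpt8 cells. Srgn, the serglycin core protein, was at 4934 CPM in mast-like and 12940 CPM in Mcpt8 cells, against 2026 CPM in the rest. Cd63, Slc18a2, Rab27b, Slc6a4 and Maob had 132, 22, 20, 11 and 10 UMIs in mast-like cells.

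Receptor and signalling genes were at different levels in the carrier groups, which were not tested against each other. Mrgprb1 (119 UMIs) and Mrgprb2 (21 UMIs), receptors for cationic peptides on mouse mast cells, were found only in mast-like cells among the 6054 cells. Il1rl1, the IL-33 receptor, was at 2392 CPM in mast-like cells and 592 CPM in Mcpt8 cells, against 56.3 CPM in the rest. Csf2rb, the shared beta chain for IL-3, IL-5 and GM-CSF, had 21 UMIs in mast-like and 18 in Mcpt8 cells. Csf2rb2 and Cd200r4 had 27 and 16 UMIs in mast-like cells. Fcer1g, the gamma chain that the IgE receptor shares with other Fc receptors, was at 4374 CPM in mast-like and 6090 CPM in Mcpt8 cells, against 2336 CPM in the rest, and the adaptor Lat2 gave 39 UMIs in mast-like cells. Of 33 Gata2 UMIs, 13 were in mast-like and 18 in Mcpt8 cells; Gata2 is a transcription factor of both lineages. Tal1 gave 12 UMIs in mast-like cells and Cebpb 27 in Mcpt8 cells. Among lipid mediator genes, Adora3 and Alox5 gave 15 and 11 UMIs in mast-like cells, and Ptgs2 and Alox5ap 57 and 21 in Mcpt8 cells.

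Outside the members, the non-member genes with the largest fold of pooled CPM over all other cells (20 CPM added) were Tph1 and Mrgprb1 in mast-like cells, both 129-fold, followed by Serpinb1a, Cyp11a1, Tpsab1, Hdc, Cd55, Il1rl1, Slc18a2 and Papss2. In Mcpt8 cells they were Il4 (1230-fold), Il6, Il13, Ccl3, Hdc, Cyp11a1, Hgf, Gata2, Ccl4 and Egr3. Hdc and Cyp11a1 stood in both sets. These folds are over all other cells pooled and were not tested, and a high fold does not make a gene particular to the group. Il1rl1 was in 1017 cells, with 5.28% of its UMIs in mast-like cells. Serpinb1a was in 570 cells, of which 19 were mast-like. Mrgprb1 and Tpsab1, by contrast, had UMIs in mast-like cells only. Of 10 eosinophil genes, Il5ra had 1 UMI in mast-like cells and the others 0 in both groups, and Epx had 0 UMIs in the table.

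Across these lists, few genes were called by edgeR between the genotypes in the sums of all CD45+ cells, which does not show that the others were unchanged. Of 17 growth and activating factor genes tested, 1 was called, against 0.0393% of all genes: Il7r, a chain of the IL-7 and TSLP receptors, was lower in knock-out animals with a log2 fold change of -0.74 ± 0.08 (edgeR adjusted p = 0.00946). Within ILC2-like cells the log2 fold change of Il7r was -0.35 ± 0.15 and was not called (edgeR adjusted p = 0.447). In the sums, fewer carrier cells and less RNA per cell cannot be told apart. None was called of 22 cytokine and chemokine genes tested (11 positive and 11 negative folds), 12 of IgE receptor signalling, 10 lineage transcription factors, 8 lipid mediator genes, 6 granule matrix and amine genes, 2 eosinophil genes or 1 other granule protease. The median log2 fold was -0.44 for the granule matrix and amine genes and -0.09 for the cytokines and chemokines, against 0.01 over all genes tested.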

How the data were processed

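Per the labels, single-cell 3′ libraries were made from pooled, hashtagged, sorted CD45+ esophageal cells on 2 wells. The authors deposited 1 table of raw UMI counts per gene and cell, without normalization, whose cell names give well, genotype and hashtag; cells were assigned to animals by those names. The tools named in the submitters' processing notes are Cell Ranger 6.0.1 and R 4.0.5, with build mm10. Neither the annotation release nor the method of hashtag calling was given in these sources. Every cell had 1000 or more UMIs and 501 or more genes. The labels do not say that animals were littermates, so p-values measure the spread between the 10 hashtagged animals.

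Symbols matched 32158 gene identifiers. No cell was removed. Scrublet called 3 cells (0.0496%) doublets, too few for a working call, so an alternative left out the top 5% of scores. Counts without the 9 genes were clustered in scanpy 1.11.5 (2000 variable genes, 30 components, 15 neighbours, Leiden by igraph 0.11.9, resolution 3) into 44 clusters. A cluster was named "X-like" when 3 or more of a type's markers were raised by 1 log2 unit, and 9 stayed unnamed. A cluster that met this also stayed unnamed where its leading genes held more markers of another type. That applied to the cluster led by Ccl8 (8 macrophage markers raised) and to a cluster of 34 cells with 6 cycling markers raised. Class names were thus rebuilt here. Sums per animal were fitted with edgeR 4.0.16 under R 4.3.3 (filterByExpr, TMM, robust quasi-likelihood test, Benjamini-Hochberg adjustment, threshold 0.05), with DESeq2 1.42.0 as an alternative. Classes entered with 10 or more cells in an animal. The edgeR code was tested on simulated data. Intervals are exact binomial ones at 95%, and a count of 0 was read as up to 3 counts. The 9 genes, gene lists and markers were chosen with earlier results of these data known. Of each list, genes with 10 or more UMIs in a carrier group were named, at most 8 by UMIs; like genes and leading genes were the first 3 and 10 by rank. Other alternatives were no filter, no TMM, each well, each animal left out, thinning to 1000 UMIs, sums without monocyte-like and neutrophil-like cells, and other carrier rules. The hashtag count files were not used.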

Additional observations from a re-analysis of the deposited data

Results flagged for a closer look

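Among 36 groups of 5 animals (each gene and genotype, as CPM and as a share of cells), 4 had an animal whose gap to the next exceeded 0.71 of the group's range. For independent, normally distributed values chance gives about 1 in 20 such groups. Mcpt8 was at 0 in most animals and the groups share genes and cells, so that rate cannot be applied to these 4. Mcpt8 was at 4.059 CPM in knock-out animal 1, while the other knock-out animals lay between 0 and 0.28 CPM. In wild-type animal 2 it was at 4.461 CPM and in 0.157% of cells, with 0 in the other 4 wild-type animals. These are the animals with the 3 Mcpt8 cells. Cd200r3 was found in 0.1473% of cells of knock-out animal 5, below the 1.48% to 1.71% of the other knock-out animals.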

How the results depend on the processing

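In all CD45+ cells 4 genes were called by edgeR, against 74 by DESeq2, 7 without a filter on low counts, 2 in well 1 alone and 1 to 5 with an animal left out (1 without knock-out animal 4, 2 without wild-type animal 4). In ILC2-like cells 5 were called, against 10 by DESeq2, 26 without a filter and 2 to 11 with an animal left out. Kit differed by -3.41 percentage points as a share of cells (p = 0.0635, exact permutation test), by -5.09 CPM without ILC2-like cells and by -3.10 CPM without mast-like cells as well; with an animal left out it stayed between -18.4 and -13.6 CPM. Its adjusted p in all CD45+ cells ran from 0.0426 (DESeq2) to 0.736. Directions turned for low genes. Cma1 as a share of cells differed by 0.0271 percentage points. Mcpt8 (-0.0246 CPM) turned to 0.0437 as a share, 0.0142 as a thinned share, 0.624 CPM without monocyte-like and neutrophil-like cells and 0.888 CPM in well 1, and ran from -0.822 to 0.868 CPM with an animal left out. Ms4a2 ran from -0.88 to 0.277 CPM and Cd200r3 from -0.166 to 1.40 CPM with an animal left out; Cd200r3 was -0.232 CPM in well 2 and -0.0872 as a thinned share, and its log2 fold ran from -0.16 to 0.70. The rule for protease carriers gave 20 to 24 cells under every alternative. The causes were not tested. Cells with a gene, counted at 2 or more UMIs and then after thinning, numbered 27 and 26 for Cpa3 (45 reported), 22 and 28 for Cma1 (45), 172 and 129 for Kit (345), and 22 and 20 for Cd200r3 (72); thinning left 13 for Ms4a2 (22). Without the top 5% of doublet scores 1 Mcpt8 cell remained, and 2 cells with Mcpt8. No paired analysis was possible because hashtag numbers name animals and pair none across genotypes.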
